A study of Mus musculus with 6 samples.

Results

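The 10 genes described here encode the main intestinal carriers of amino acids and small peptides, together with the creatine carrier. They were chosen by name from the 24736 gene symbols of a deposited RNA-seq table, and all 10 were measured. They are Slc15a1, Slc6a19, Slc6a20a, Slc7a9, Slc3a1, Slc1a1, Slc7a7, Slc7a8, Slc3a2 and Slc6a8. Crypts were released in EDTA along the whole gut of males aged 12 weeks, in biological triplicate from WT and from Mtg16-/- mice. Each of the 6 samples gave 1 library of total RNA depleted of ribosomal RNA. MTG16 is a transcriptional co-repressor encoded by Cbfa2t3. The labels call the knock-out CRISPR induced, whereas the study describes its Mtg16-/- mice as a gift from another laboratory, and this difference was not resolved here. In either case the knock-out is not restricted to the epithelium by any promoter or Cre that the labels name. The control mice carry no engineered allele in the labels, the strain was not given in the sources used here, and neither group was treated.

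Dietary protein is taken up by enterocytes as small peptides and as free amino acids. Carriers of the apical membrane use the proton gradient, the sodium gradient or exchange to bring them in, and exchangers and facilitated carriers of the basolateral membrane pass amino acids on to the blood. Some of the exchangers work as a pair of proteins, a heavy chain of the SLC3 family that brings the complex to the membrane and a light chain of the SLC7 family that carries the amino acid. Many of the carriers are most abundant in differentiated villus enterocytes, whereas crypts hold mainly stem cells, dividing progenitors and Paneth cells.

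In Mtg16-/- crypts, 8 of the 10 genes had a negative log2 fold change and 2 a positive one, where 53.6% of all tested genes had a negative one. The lowest was that of the creatine carrier Slc6a8 (-1.15), followed by the neutral amino acid carrier Slc6a19 (-1.04), and the highest was that of the glutamate carrier Slc1a1 (0.35). None of the 10 was called by limma at an adjusted p under 0.1, where 0.0326% of the 12268 tested genes were called (0.0163% as lower). The lowest adjusted p among the 10 was 0.263, from limma, and 6 of the 10 had an unadjusted p under 0.05, compared with 14.6% of the tested genes. Of these 6, 5 were lower and 1 was higher in Mtg16-/- crypts, against 8.05% and 6.53% of the tested genes. The groups did not overlap in 4 of the 10 genes, where 21.0% of the tested genes had groups that did not overlap. Of the 4, Slc7a7, Slc3a2 and Slc6a8 were lower in all Mtg16-/- libraries (11.1% of the tested genes) and Slc1a1 was higher in all of them (9.94%). The median log2 fold change was -0.81 over the 10 genes and -0.03 over all tested genes. Apart from Slc6a20a and Slc1a1, the genes rose and fell together over the 6 libraries (Pearson's r from 0.841 to 0.998). Counts over the 10 genes are therefore not counts of separate observations. Fold changes are those of Mtg16-/- over WT on the log2(TPM + 1) scale, where TPM is a level scaled to the length of the transcript and to a fixed total per library.

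The size of these differences depended in part on WT replicate 1. Without it none of the 10 genes was called (0.327% of the tested genes, lowest limma adjusted p = 0.354), and the median log2 fold change was -0.39. The same 3 genes were lower in all Mtg16-/- libraries, where 16.9% of the tested genes were. Groups that lie apart cannot come to overlap when a library is left out, so this adds no support. Slc6a20a and Slc1a1 were then higher in all Mtg16-/- libraries, a share not counted over all genes. A fit with the replicate number as a block called 8 of the 10 genes, where it called 9.79% of the tested genes. The numbers were not shown to pair the samples, so the values of that fit are given with the other processing alternatives.

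**Figure D1:**
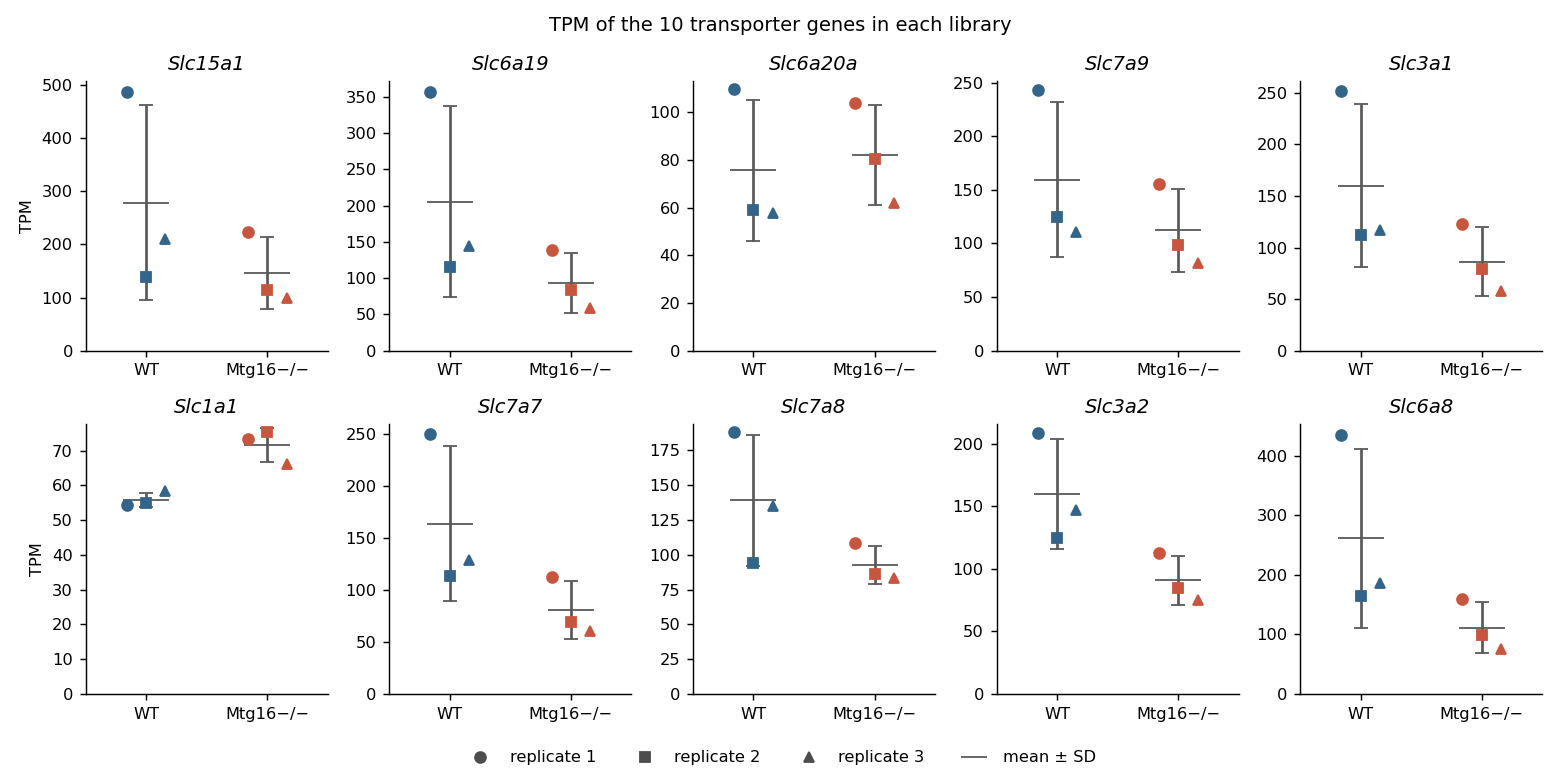
TPM (vertical axis, from 0) of each of the 10 transporter genes in the 3 WT and 3 Mtg16-/- libraries, with bars for the mean ± SD of each group. WT replicate 1 is the highest of the 6 libraries in 9 of the 10 genes, and only Slc1a1, at 54.4 TPM there, departs from this.

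In the WT crypt libraries the 10 genes ranked by mean TPM from the top 4.15% (Slc15a1) to the top 22.5% (Slc1a1) of the tested genes. Slc6a20a was at 16.5%, and the other genes lay within the top 8.86%. These libraries also held enterocyte markers, as given below, and which cells the levels came from was not tested. By mean TPM in WT the order was Slc15a1 (278), Slc6a8 (262), Slc6a19 (205), Slc7a7 (164), Slc3a2 (160.0), Slc3a1 (159.9), Slc7a9 (159.6), Slc7a8 (139), Slc6a20a (75.5) and Slc1a1 (55.9). Without WT replicate 1, Slc6a8 (174.9) and Slc15a1 (174.4) were level at the top and Slc3a2 (135.6) came before Slc6a19 (129.9), while Slc6a20a and Slc1a1 remained last. Over all 3 WT libraries, only between Slc7a8 and Slc6a20a did the step to the next gene exceed the larger of the 2 standard deviations (63.5 against 47.2 TPM). Within each of the 3 WT libraries, however, Slc6a8 was above Slc6a19 and Slc6a19 above Slc7a7, as Slc7a8 was above Slc6a20a. Slc7a7, Slc3a2, Slc3a1 and Slc7a9 were nearly level. In Mtg16-/- crypts Slc15a1 was again first (146 TPM) and Slc1a1 last (71.6), while Slc7a9 stood in the second place (112) and Slc7a7 in the ninth (80.8). These places are a description.

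The genes lie on 7 chromosomes in GRCm38.p6. Slc15a1 (121459621 to 121505254), Slc7a7 (54369442 to 54420068) and Slc7a8 (54722215 to 54781886) are on chromosome 14, where 302.1 kb and 15 protein-coding genes separate the latter pair. Slc3a2 (8706882 to 8723369) and Slc1a1 (28835135 to 28913960) are on chromosome 19. Slc6a19 is on chromosome 13 (73679745 to 73700780), Slc6a20a on chromosome 9 (123636907 to 123678832), Slc7a9 on chromosome 7 (35448727 to 35466034), Slc3a1 on chromosome 17 (85028347 to 85064241) and Slc6a8 on chromosome X (73673133 to 73682502). On the opposite strand, Slc3a1 shares 1731 bases with Prepl, Slc7a7 shares 228 bases with Oxa1l and Slc6a19 shares 826 bases with Slc6a19os. Whether the counting used strand was not given in the sources used here, so reads in these stretches may be uncertain. Prepl had at most 27.7 TPM and Slc6a19os at most 0.18 TPM in any library, whereas Oxa1l had between 45.02 and 67.43 TPM. Noncoding genes and a pseudogene that overlap Slc7a9, Slc1a1 or Slc6a8 were not analysed here.

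Promoters are shown for 4 genes with a single annotated start, Slc15a1 and Slc3a1 with lower means in Mtg16-/- crypts and Slc6a20a and Slc1a1 with higher ones. Each line gives the 250 bases before the start in RefSeq's GRCm38.p6 annotation, 5′ to 3′ on the strand of the gene. Capitals mark matches on either strand to the letters of known motifs. These were the E-box forms CAGCTG and CAGATG bound by basic helix-loop-helix factors, the letters GGGCGG of the GC box, the letters TATAAA of the core promoter (TATA box), the letters AGATAAG for GATA factors, the letters TTTATNG for CDX factors and the letters CAAAGTCC for HNF4.
Slc15a1, chr14:121505255-121505504, minus strand: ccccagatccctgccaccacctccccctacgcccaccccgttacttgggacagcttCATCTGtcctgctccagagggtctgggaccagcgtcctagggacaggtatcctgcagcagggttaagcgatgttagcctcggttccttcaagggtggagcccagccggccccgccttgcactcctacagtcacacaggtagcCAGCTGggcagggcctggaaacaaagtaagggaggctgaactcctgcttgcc
Slc3a1, chr17:85028097-85028346, plus strand: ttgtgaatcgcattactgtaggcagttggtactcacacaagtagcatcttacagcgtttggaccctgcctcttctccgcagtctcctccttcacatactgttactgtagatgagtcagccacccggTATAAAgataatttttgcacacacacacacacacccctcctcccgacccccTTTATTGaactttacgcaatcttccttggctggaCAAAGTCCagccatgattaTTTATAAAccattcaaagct
Slc6a20a, chr9:123678833-123679082, minus strand: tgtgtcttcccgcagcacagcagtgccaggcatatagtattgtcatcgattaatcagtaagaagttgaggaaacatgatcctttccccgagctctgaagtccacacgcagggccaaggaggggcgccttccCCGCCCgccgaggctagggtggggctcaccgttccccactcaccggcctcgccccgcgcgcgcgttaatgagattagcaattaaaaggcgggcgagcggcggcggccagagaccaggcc
Slc1a1, chr19:28834885-28835134, plus strand: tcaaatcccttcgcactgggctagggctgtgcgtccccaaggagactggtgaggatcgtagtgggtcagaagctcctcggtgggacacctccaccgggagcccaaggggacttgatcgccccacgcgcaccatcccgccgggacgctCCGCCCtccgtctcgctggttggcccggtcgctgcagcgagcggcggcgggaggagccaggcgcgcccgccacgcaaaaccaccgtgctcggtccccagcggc

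Slc15a1 held 1 match to each E-box form, 52 and 194 bases before the start. Slc3a1 held an HNF4 match 39 bases and a CDX match 73 bases before the start. It also held 3 matches to the TATA box, of which a pair overlaps on the opposite strands. Slc6a20a and Slc1a1 each held 1 GC box, 119 and 103 bases before the start. The GC content of the 4 windows was 62%, 45.6%, 61.2% and 70.4%, where the median of all 32851 windows of this length was 52.4%. Of all these windows, 32.7% held the GC box, 13% CAGCTG, 14.4% CAGATG, 12.4% the TATA box, 9.81% the CDX letters, 2.74% the GATA letters and 1.2% the HNF4 letters. Among the 9 genes with an annotated start, 14 windows in all, the GC box was found in 5 genes, CAGCTG in 3, CAGATG in 2, and the TATA box and the GATA, CDX and HNF4 letters in 1 each. Besides Slc6a20a and Slc1a1, the GC box was found in Slc7a7, Slc7a8 and Slc3a2, whose log2 fold changes were negative (-0.98, -0.53 and -0.80). The shares of all windows count windows and not genes. Of the 14 windows, 6 held the GC box, 3 CAGCTG, 2 CAGATG and 1 each of the other motifs. These are matches of letters and say nothing on their own about binding.

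The level of Cbfa2t3 did not distinguish the genotypes, with 3.67, 6.69 and 4.52 TPM in WT and 4.62, 6.43 and 3.23 TPM in Mtg16-/- libraries. A gene-level TPM sums all exons and cannot show a missing one, so each direction given here rests on the labels. Of the 6 libraries, WT replicate 1 stood apart in cell type markers. The 15 enterocyte markers summed to 43140 TPM in WT replicate 1, 15207 to 18806 TPM in the other WT libraries and 7756 to 14699 TPM in Mtg16-/- libraries. None of the 15 was at 0, each was highest in WT replicate 1, and each had a negative log2 fold change (median -1.20, or -0.68 without WT replicate 1). The 8 stem cell markers summed to 884 to 1522 TPM in WT and 1654 to 2195 TPM in Mtg16-/- libraries, and the 6 Paneth cell markers to 8988 to 19571 and 24001 to 29484 TPM. The 5 pan-epithelial markers, such as Epcam, summed to 8035 to 8477 TPM in WT and 7990 to 8821 TPM in Mtg16-/- libraries. Every library thus carried epithelial markers, which do not separate crypt from villus cells. The 8 mesenchyme, vessel and muscle markers summed to at most 7.6 TPM. In these bulk samples fewer enterocytes and less RNA per enterocyte cannot be told apart. The part of the enterocyte level in the transporter results was not tested, and values without WT replicate 1 are given beside the results below.

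**Figure D2:**
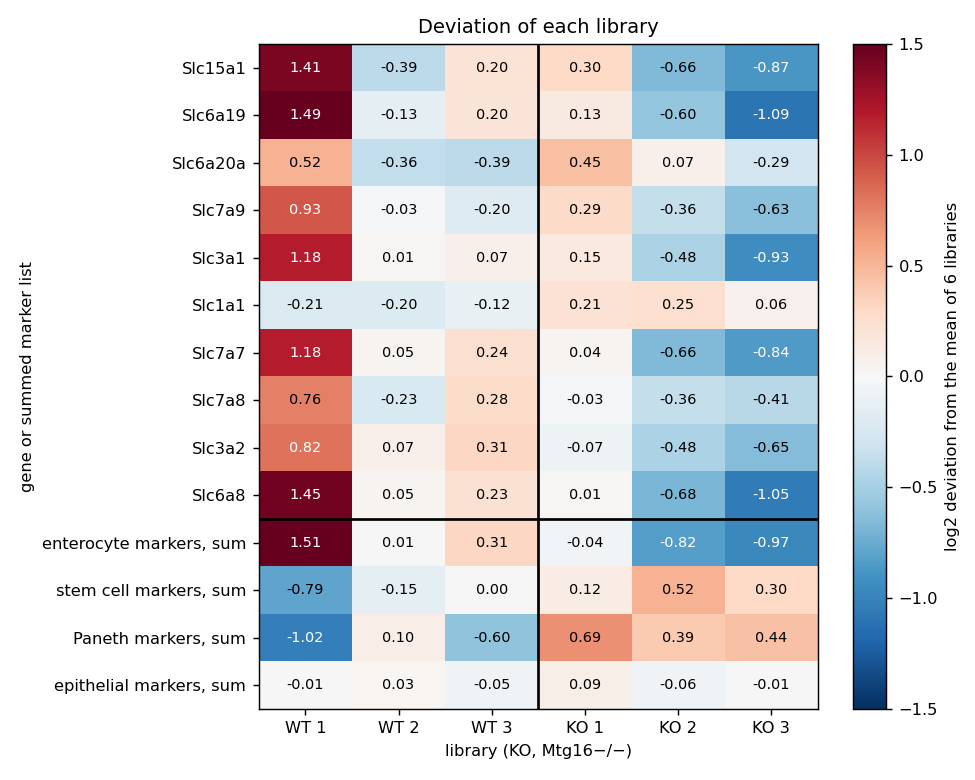
Deviation of each library (columns) from the mean of the 6 libraries on the log2 scale, for the 10 transporter genes on log2(TPM + 1) and for the summed TPM of 4 marker lists (rows). Slc6a19 deviates by 1.49 and the enterocyte sum by 1.51 in WT replicate 1, whereas Slc1a1 deviates by -0.21 and the epithelial sum by -0.01 in that library.

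Slc15a1 encodes PEPT1, which takes up di- and tripeptides with protons across the apical membrane. Its TPM was 486, 139 and 210 in WT crypts, compared with 224, 115 and 99.0 in Mtg16-/- crypts. The groups overlapped, since Mtg16-/- replicate 1 lay above WT replicates 2 and 3. The log2 fold change was -0.82 (standard error 0.47, 95% interval -1.90 to 0.26, limma adjusted p = 0.434). It was -0.32 without WT replicate 1, with an interval from -1.12 to 0.48. The interval holds both a fold change of 0 and one well below it, so neither a difference nor its absence was shown for this gene.

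Slc6a19 encodes B0AT1, the main sodium-coupled carrier of neutral amino acids in the brush border. Its TPM was 356, 115 and 145 in WT crypts, compared with 139, 83.3 and 58.8 in Mtg16-/- crypts. Mtg16-/- replicate 1 lay between WT replicates 2 and 3, and the other Mtg16-/- libraries lay below all WT libraries. The log2 fold change was -1.04 (standard error 0.45, 95% interval -2.06 to -0.01, limma adjusted p = 0.340), and -0.55 without WT replicate 1. Slc6a20a encodes a sodium-coupled carrier of proline and other imino acids, which belongs to the same family. It had 110, 58.9 and 57.9 TPM in WT and 104, 80.2 and 62.0 TPM in Mtg16-/- libraries. The lowest values of both groups were close together, as were the highest, and its log2 fold change was 0.15 (standard error 0.28, 95% interval -0.50 to 0.80, limma adjusted p = 0.820). Without WT replicate 1 it was 0.45, with the 3 Mtg16-/- libraries above both remaining WT libraries, whereas without Mtg16-/- replicate 1 it was -0.03. Its neighbouring copy Slc6a20b had at most 1.44 TPM in any library, and how reads were divided between these copies was not examined.

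Slc7a9 and Slc3a1 encode the light chain b0,+AT and the heavy chain rBAT of the apical exchanger of cystine and dibasic amino acids, the complex that is defective in cystinuria. Slc7a9 had 243, 125 and 111 TPM in WT and 156, 98.9 and 82.2 TPM in Mtg16-/- libraries. Slc3a1 had 251, 112 and 117 TPM in WT and 123, 79.1 and 57.6 TPM in Mtg16-/- libraries. In both genes Mtg16-/- replicate 1 reached above WT libraries and the other Mtg16-/- libraries lay below all of WT. The log2 fold change was -0.47 for Slc7a9 (standard error 0.33, limma adjusted p = 0.523) and -0.84 for Slc3a1 (standard error 0.36, limma adjusted p = 0.340). Leaving out WT replicate 1, these values were -0.12 and -0.47.

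Slc1a1 encodes EAAT3, a sodium-coupled carrier of glutamate, aspartate and cysteine. Its TPM was 54.4, 54.9 and 58.2 in WT crypts, compared with 73.4, 75.3 and 66.1 in Mtg16-/- crypts. All Mtg16-/- libraries lay above all WT libraries, and the level varied little within WT (SD 2.07, n = 3). Slc1a1 had a log2 fold change of 0.35 (standard error 0.11, 95% interval 0.09 to 0.61), at an unadjusted p of 0.0142 and an adjusted p of 0.279 from limma. With any 1 library left out it lay between 0.31 and 0.41.

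**Figure D3:**
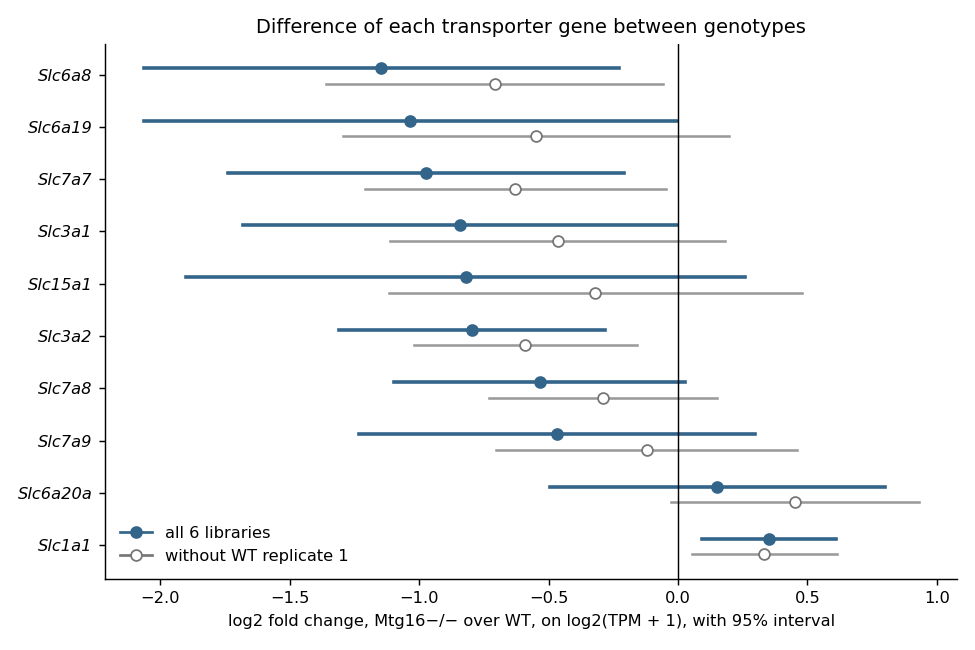
Log2 fold change (horizontal axis, Mtg16-/- over WT on log2(TPM + 1)) of each transporter gene with its 95% interval from limma, for all 6 libraries (filled) and without WT replicate 1 (open). The filled points run from -1.15 for Slc6a8 to 0.35 for Slc1a1, and the intervals of 6 genes leave out 0. Without WT replicate 1 the intervals of 4 genes leave out 0, and those of Slc6a19 and Slc3a1 no longer do.

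Slc3a2 encodes 4F2hc, also known as CD98, the heavy chain that carries several light chains to the basolateral membrane. Its TPM was 209, 124 and 147 in WT crypts, compared with 112, 84.6 and 75.2 in Mtg16-/- crypts. All Mtg16-/- libraries lay below all WT libraries. Its log2 fold change was -0.80 (standard error 0.22, 95% interval -1.31 to -0.28), and its unadjusted p of 0.00728 was the lowest of the 10 genes, at an adjusted p of 0.263 from limma. It was -0.59 without WT replicate 1.

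Slc7a7 encodes y+LAT1, the light chain that exports dibasic amino acids in exchange for neutral ones and that is defective in lysinuric protein intolerance. It had 249.97, 113 and 129 TPM in WT and 113, 69.1 and 60.6 TPM in Mtg16-/- libraries. The highest Mtg16-/- library (112.7) lay just below the lowest WT library (113.1), so the groups were separated by less than 1 TPM. The log2 fold change was -0.98 (standard error 0.33, 95% interval -1.74 to -0.21, limma adjusted p = 0.284), and -0.63 without WT replicate 1. Slc7a8 encodes LAT2, the light chain that exchanges neutral amino acids. It had 188, 94.2 and 135 TPM in WT and 109, 86.3 and 83.0 TPM in Mtg16-/- libraries. Mtg16-/- replicate 1 lay above WT replicate 2, and the log2 fold change was -0.53 (standard error 0.24, 95% interval -1.10 to 0.03, limma adjusted p = 0.360), or -0.29 without WT replicate 1. Slc3a2 and Slc7a7 are also expressed by leukocytes. The 8 leukocyte markers, such as Ptprc and Cd3e, summed to 138, 69.1 and 79.7 TPM in WT and 88.3, 55.7 and 39.0 TPM in Mtg16-/- libraries, none was at 0 in all libraries, and their part in these results was not tested.

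Slc6a8 encodes the sodium- and chloride-coupled creatine carrier. Its TPM was 435, 164 and 186 in WT crypts, compared with 160.1, 98.6 and 76.2 in Mtg16-/- crypts. As in Slc7a7, the highest Mtg16-/- library lay just below the lowest WT library (163.9 TPM). For Slc6a8 the log2 fold change was -1.15 (standard error 0.40, 95% interval -2.06 to -0.23, limma adjusted p = 0.289), and -0.71 without WT replicate 1. Creatine is turned into phosphocreatine by creatine kinases, and a list of 6 genes of creatine synthesis and creatine kinases was examined beside the carrier. Of the 3 that were tested, none was called and 2 had an unadjusted p under 0.05, both with lower means in Mtg16-/- libraries (8.05% of all tested genes). Ckb, the cytosolic brain-type kinase, had 315, 175 and 199 TPM in WT and 86.2, 64.5 and 78.4 TPM in Mtg16-/- libraries, a log2 fold change of -1.54 (standard error 0.23) at a limma adjusted p of 0.104, outside the threshold. It was -1.29 without WT replicate 1, at a limma adjusted p of 0.0447, and Ckb was then called. Its lowest WT library was above its highest Mtg16-/- library, so the groups did not overlap. Ckmt1, the ubiquitous mitochondrial kinase, had a log2 fold change of -0.71 (limma adjusted p = 0.312), or -0.45 without WT replicate 1. Gamt, which makes creatine, had a log2 fold change of 0.20 at a low level (4.53 and 5.43 mean TPM), and -0.09 without WT replicate 1. Gatm, Ckm and Ckmt2 had at most 0.91 TPM in any library.

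To compare the chains of an exchanger within each library, which does not depend on the scaling between libraries, the ratio of their TPM was taken for 3 pairs. The ratio of Slc7a9 to Slc3a1 was 0.966, 1.11 and 0.953 in WT crypts, compared with 1.27, 1.25 and 1.43 in Mtg16-/- crypts. The light chain of the apical exchanger was thus higher relative to its heavy chain in all 3 Mtg16-/- libraries, by 0.38 on the log2 scale (two-sided exact permutation test, p = 0.1, below which the 20 possible relabellings cannot go, and 0.15 adjusted over the 3 pairs). The ratio of Slc7a8 to Slc3a2 was 0.902, 0.757 and 0.918 in WT and 0.967, 1.02 and 1.10 in Mtg16-/- libraries. Its groups did not overlap either, at a log2 difference of 0.27 (two-sided exact permutation test, p = 0.1, adjusted p = 0.15). The ratio of Slc7a7 to Slc3a2 was 1.20, 0.910 and 0.881 in WT and 1.00, 0.817 and 0.806 in Mtg16-/- libraries. Its groups overlapped, at a log2 difference of -0.18 (two-sided exact permutation test, p = 0.5, adjusted p = 0.5), or -0.04 without WT replicate 1.

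Another 2 ratios were chosen after the values of the genes were seen, and set the 2 genes with positive fold changes beside Slc6a19, which had one of the lowest. They are a description with no test, since that choice favours groups that lie apart. The ratio of Slc6a20a to Slc6a19 was 0.308, 0.512 and 0.400 in WT crypts, compared with 0.750, 0.963 and 1.06 in Mtg16-/- crypts. The imino acid carrier was thus at less than the neutral amino acid carrier in each WT library, and at 0.750 to 1.06 times its level in Mtg16-/- libraries. The log2 difference was 1.20, and 1.01 without WT replicate 1. The ratio of Slc1a1 to Slc6a19 was 0.153, 0.477 and 0.402 in WT and 0.529, 0.904 and 1.13 in Mtg16-/- libraries, a 2.64-fold difference. It was 0.89 on the log2 scale without WT replicate 1.

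**Figure D4:**
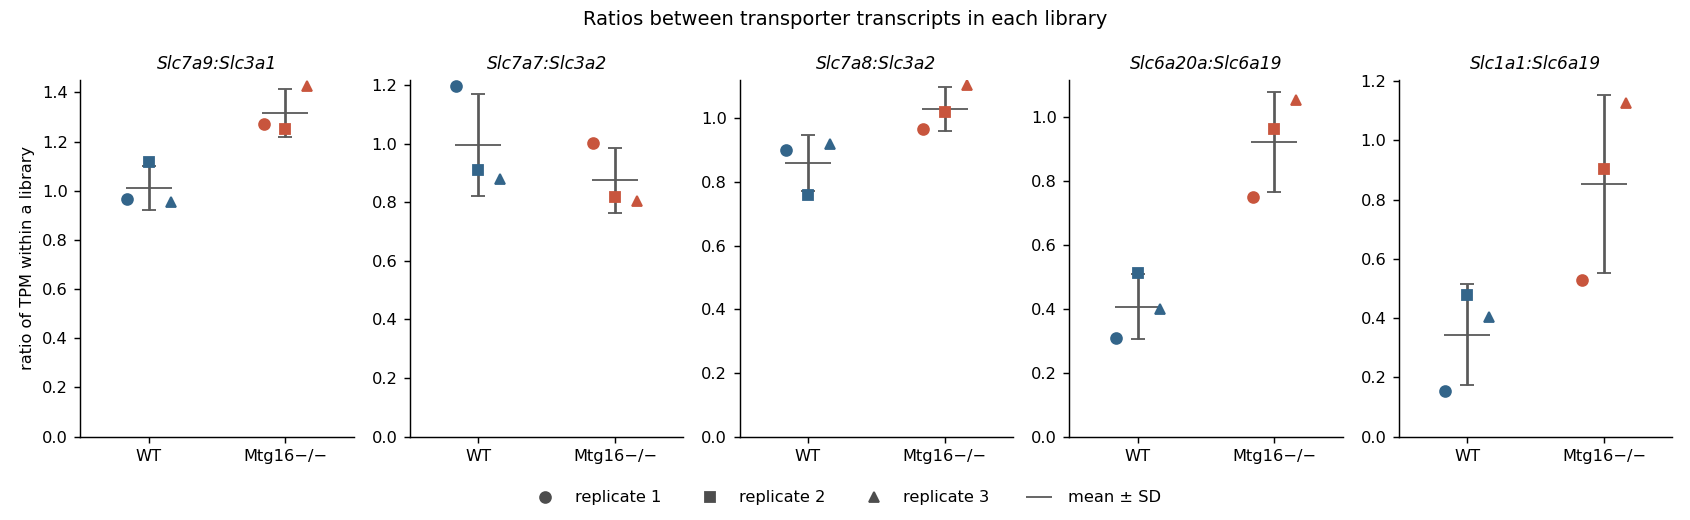
Ratio of TPM between 2 transporter genes within each library (vertical axis, from 0), with bars for the mean ± SD of the 3 WT and 3 Mtg16-/- libraries. The groups do not overlap for Slc7a9:Slc3a1, Slc7a8:Slc3a2, Slc6a20a:Slc6a19 and Slc1a1:Slc6a19, and overlap for Slc7a7:Slc3a2.

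The other carriers of amino acids and peptides were examined as a list of 35 genes, of which 25 passed the filter of a mean TPM of at least 1. None was called by limma, and 4 had an unadjusted p under 0.05, all with negative log2 fold changes. Of all tested genes, 14.6% had such a p, and 8.05% had one with a negative log2 fold change. Negative values were found in 15 and positive ones in 10 of the 25, where 53.6% of all tested genes had a negative one. The median of the 25 was -0.11, compared with -0.81 for the 10 genes above and -0.03 for all tested genes. These medians were -0.20, -0.39 and -0.03 without WT replicate 1, so the lists lay closer together. Slc7a15 had the lowest value, -1.28 (limma adjusted p = 0.312), or -0.71 without WT replicate 1, with 134, 41.7 and 38.4 TPM in WT and 39.8, 21.6 and 16.02 TPM in Mtg16-/- libraries. Slc43a2, a facilitated carrier of neutral amino acids, had a log2 fold change of -0.88 (limma adjusted p = 0.377), or -0.46 without WT replicate 1. Slc16a10, a basolateral carrier of aromatic amino acids, and Slc36a1, a proton-coupled carrier of small amino acids, were named for their roles after their values were seen and had log2 fold changes of -0.72 and -0.70, or -0.39 and -0.24 without WT replicate 1. The highest values of the 25 were those of Slc7a2 (0.52), Slc15a2 (0.49) and Slc43a1 (0.41), each with a mean TPM under 10 and named after their values were seen. Among carriers whose mean TPM reached 10 the highest were 0.02 for the glutamate carrier Slc1a3 and 0.01 for the glutamine carrier Slc1a5, which were -0.06 and -0.17 without WT replicate 1. Slc1a5 had 77.3 ± 17.2 TPM in WT and 76.9 ± 12.8 TPM in Mtg16-/- libraries (SD, n = 3 each). Slc7a10 and Slc7a13 were listed at 0 in every library.

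Peptides and amino acids reach the carriers through peptidases of the brush border and the cytosol, which were examined as a list of 18 genes. All 17 that were tested had negative log2 fold changes (53.6% of all tested genes), with a median of -0.68 (-0.35 without WT replicate 1). None of the 17 was called by limma, and 3 had an unadjusted p under 0.05, compared with 14.6% of all tested genes. The lowest values among peptidases with a mean TPM of at least 10 were those of the gamma-glutamyltransferase Ggt1 (-1.13, limma adjusted p = 0.305) and aminopeptidase N, Anpep (-0.99, limma adjusted p = 0.343), which were -0.69 and -0.60 without WT replicate 1. The highest were those of the meprin subunit Mep1a (-0.15) and Naaladl1 (-0.21), whose direction turned without WT replicate 1 (0.16 and 0.07). Tmprss15, the enteropeptidase that activates trypsinogen, was singled out after its values were seen. It had 16.7, 5 and 6.02 TPM in WT and 0.48, 1.36 and 1.34 TPM in Mtg16-/- libraries, a log2 fold change of -2.17 (limma adjusted p = 0.170), or -1.69 without WT replicate 1, and its groups did not overlap.

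Genes for scaffold proteins of the apical membrane, to which carriers bind, also had lower means in Mtg16-/- crypts. Pdzk1 and Slc9a3r1 had log2 fold changes of -0.81 and -0.69 (limma adjusted p = 0.428 and 0.386), or -0.32 and -0.36 without WT replicate 1, which was their highest library. Of the 6 genes for the sodium pump and sodium/proton exchangers, which keep up the gradients that the carriers use, 5 had negative log2 fold changes (53.6% of all tested genes). Of these 5, 2 had an unadjusted p under 0.05, where 8.05% of all tested genes had such a p with a negative value. None of the 6 was called by limma. WT replicate 1 was the highest library in 5 of the 6, and their median was -0.49, or -0.29 without it. The apical exchanger Slc9a3 had 102, 41.2 and 42.7 TPM in WT and 40.3, 18.1 and 15.7 TPM in Mtg16-/- libraries, with no overlap and a log2 fold change of -1.28 (limma adjusted p = 0.282), or -0.86 without WT replicate 1. The pump subunit Atp1b3 had a log2 fold change of 0.10 (limma adjusted p = 0.721).

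**Figure D5:**
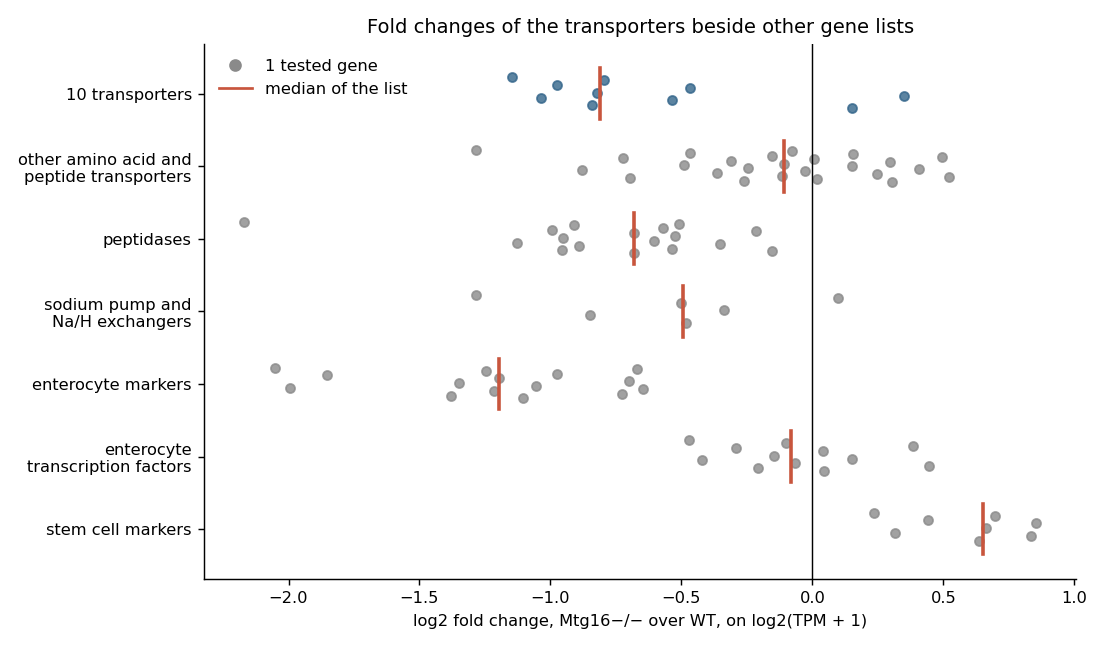
Log2 fold change (horizontal axis, Mtg16-/- over WT on log2(TPM + 1)) of each tested gene of 7 lists (rows), with a bar at the median of each list. The median is -0.81 for the 10 transporters, -0.11 for other amino acid and peptide carriers, -0.68 for peptidases, -0.49 for the sodium pump and exchangers, -1.20 for enterocyte markers, -0.08 for enterocyte transcription factors and 0.65 for stem cell markers, from all 6 libraries. Leaving out WT replicate 1, the medians of the same lists are -0.39, -0.20, -0.35, -0.29, -0.68, -0.06 and 0.43.

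The tested genes whose pattern over the 6 libraries was most like the mean standardised pattern of the 10 transporters were Anks4b, Plekhb2, Clic5, Trim30d and Uap1l1, with Pearson's r between 0.997 and 0.999. Anks4b encodes a protein of the links between microvilli. These coefficients are a description over 6 libraries that share the high values of WT replicate 1. Anks4b had 221, 112 and 131 TPM in WT and 147, 105 and 88.5 TPM in Mtg16-/- libraries, and its groups overlapped, as did those of the other 4 genes. The log2 fold changes of the 5 genes lay between -0.60 and -0.28, and none was called by limma (adjusted p between 0.433 and 0.509).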

How the data were processed

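RNA-seq of 3 WT and 3 Mtg16-/- crypt samples was analysed from a gene-level table in which the authors deposited TPM values from RSEM, rounded to 2 decimals and scaled to the same sum in each library. The submitters' processing notes name cutadapt 1.9.1, STAR 2.5.2a, RSEM 1.3.0 and the genome build mm10. TPM keeps no read number, so the depth is unknown and no interval or floor that needs it is given. The authors' calls were not used.

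Genes whose mean TPM over the 6 libraries reached 1, 12268 in all, were tested on log2(TPM + 1) with limma 3.58.1 (R 4.3.3; lmFit, and eBayes with an intensity trend), without covariates, two-sided. P-values were adjusted over all tested genes by the Benjamini-Hochberg method, and genes were called under 0.1. Fold changes on this scale understate those of low genes. The calculation was tested on simulated libraries. Ratios were compared by an exact permutation test over libraries. The labels call the samples biological triplicates, and p-values measure the spread between them.

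The transporters and all gene lists were chosen with earlier results of these data known. Named were all 10 transporters, in each list of at least 3 tested genes those with a mean TPM of at least 10 and the highest and lowest fold changes, and the 5 genes most like the transporters. Some genes that this rule names are not reported here. Alternatives were another pseudocount, filter, scaling, trend or threshold, a replicate block and each library left out. Promoters and positions came from RefSeq GRCm38.p6, the assembly of mm10, and strands of genes from GENCODE vM21. Promoters for 9 of the 10 genes were matched by symbol.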

Additional observations from a re-analysis of the deposited data

How the results depend on the processing

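Of the 13 alternatives other than the threshold, 4 (both filters, no intensity trend and the block) cannot move a fold change. Of the 90 log2 fold changes of the 10 genes under the other 9, 88 kept their direction. The exceptions were both for Slc6a20a, at -0.00406 without WT replicate 3 and -0.0324 without Mtg16-/- replicate 1, in a range up to 0.45 with 1 library left out. None of the 10 genes was called by limma in any fit without a replicate block. Across all genes 4 were called, compared with 15 at a mean TPM of at least 5, 1 after quantile normalization, none with no filter, after median-ratio rescaling, without an intensity trend or at an adjusted p under 0.05, and 0 to 40 with 1 library left out (40 without WT replicate 1, 9 without WT replicate 3, 1, 2 and 0 without Mtg16-/- replicates 1, 2 and 3). The block on the replicate number gave 1201 called genes, 8 of the 10 transporters among them (limma adjusted p between 0.0109 and 0.0825, all with negative fold changes), and left Slc6a20a (0.534) and Slc1a1 (0.127) uncalled. The numbers were not taken to pair the samples, because the deviations of same-numbered libraries correlated with r = 0.429, 0.0753 and 0.237, and not each was over 0.1. Of the 6 libraries 5 correlated best with the one of their own number. With the replicate block, the log2 differences of the 3 chain ratios were 0.38, -0.18 and 0.27 as before (exact sign-flip test, p = 0.25, the smallest for 3 pairs). With 1 library left out they lay between 0.32 and 0.45 for Slc7a9:Slc3a1, -0.28 and -0.04 for Slc7a7:Slc3a2 and 0.18 and 0.32 for Slc7a8:Slc3a2. The causes of these dependencies were not tested.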

Other observations

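Transcription factors of the enterocyte did not share one direction. Of 12 factors, 7 had negative and 5 positive log2 fold changes in Mtg16-/- libraries (median -0.08), where 53.6% of all tested genes had negative ones. None of the 12 was called by limma, and 3 had an unadjusted p under 0.05, compared with 14.6% of all tested genes. Cdx2, a homeobox factor of intestinal identity, had 137, 168 and 176 TPM in WT and 224, 216 and 214 TPM in Mtg16-/- libraries, with no overlap and a log2 fold change of 0.45 (limma adjusted p = 0.265). Ppara, a nuclear receptor for fatty acids, had a log2 fold change of 0.39 (limma adjusted p = 0.297). Gata4, a factor of the proximal small intestine, had 101, 84.3 and 102 TPM in WT and 72.8, 68.7 and 71.6 TPM in Mtg16-/- libraries, with no overlap and a log2 fold change of -0.42 (limma adjusted p = 0.263). Klf4 had a log2 fold change of -0.47 (limma adjusted p = 0.489). Without WT replicate 1 the values of Cdx2, Ppara, Gata4 and Klf4 were 0.34, 0.39, -0.38 and -0.18.

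The 12 tested genes of the amino acid response driven by ATF4 had a median log2 fold change of -0.35, with 11 negative values (53.6% of all tested genes). None of these 12 was called by limma, and 4 had an unadjusted p under 0.05 (14.6% of all tested genes). The lowest values were those of the serine synthesis enzyme Phgdh (-0.81, limma adjusted p = 0.263), with 22.8, 43.3 and 25.5 TPM in WT and 15.3, 16.5 and 17.1 TPM in Mtg16-/- libraries, and of Ddit3 (-0.76, limma adjusted p = 0.309), or -0.99 and -0.49 without WT replicate 1. WT replicate 1 was the highest of the 6 libraries in 2 of these 12 genes, where it was highest in 9 of the 10 transporters. Without WT replicate 1 the median of the 12 genes was -0.38. Atf4 itself had 284, 304 and 257 TPM in WT and 239, 220 and 202 TPM in Mtg16-/- libraries, with no overlap (log2 fold change -0.35, limma adjusted p = 0.305), and Atf5 had the highest value among those with a mean TPM of at least 10 (-0.17, limma adjusted p = 0.621), or -0.28 without WT replicate 1.

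Lists of genes for stretches of the gut were examined, since carriers differ in level along it. The 7 genes of the proximal small intestine summed to 464 to 1322 TPM in WT and 301 to 507 TPM in Mtg16-/- libraries, the 4 genes of the ileum to 803 to 2026 and 962 to 2180 TPM, and the 6 genes of the colon to 230.2 to 350.0 and 207 to 234 TPM. The median log2 fold changes of their tested genes were -0.42, 0.38 and -0.07, or -0.38, 0.38 and 0.03 without WT replicate 1. In WT replicate 1 most of the proximal sum came from Lct (557 TPM), which is also an enterocyte marker, and Adh6a (558 TPM). Fabp6 (1168 TPM there) held most of the ileum sum. Log2 fold changes ran from -1.30 (Adh6a) to 0.22 (S100g) in the proximal list and from -0.24 (Slc10a2) to 0.98 (Fgf15) in the ileum list. The part of the stretch of gut that each library holds in the transporter results was not tested.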
